A study of Mus musculus with 19 samples.

Results

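Pancreatic lymph nodes (PLNs) from NOD mice treated with alpha1 antitrypsin (AAT, 4 arrays) were compared with PLNs from new onset diabetic NOD mice (DIA, 2 arrays), the groups being read from the sample titles. These are 6 of the 19 expression arrays of the series. PLNs of normoglycemic mice (NOR, 4 arrays) stand beside them, and the remaining arrays are of fat. All mice were female NOD mice (NOD/LtJx on the labels), an inbred strain that develops autoimmune diabetes, and were kept on a standard diet. By the study's methods AAT was given to new onset diabetic mice, so the comparison asks how node gene expression after AAT differs from that of the diabetic state. The labels give no dose, schedule, age or day of sampling for AAT, and a treatment note shared by all arrays describes streptozotocin for mice treated with anti-TNF-α, a group not analysed here. No source says that arrays within a group are of separate mice, so the p-values reflect only the spread among these samples, which may be technical.

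The PLN drains the pancreas, and in NOD mice it is where T cells first meet antigen carried from the islets. A lymph node is a dense mass of T and B lymphocytes held in a scaffold of fibroblastic reticular cells, supplied by blood vessels and by lymphatic vessels that bring in fluid, antigen and migrating cells. AAT is the main circulating inhibitor of serine proteases, above all of neutrophil elastase. VEGF-C, a secreted growth factor, acts through the receptor Flt4 to make lymphatic vessels grow, while Vegfa and its receptor Kdr serve mainly blood vessels.

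Promoters are shown first, for the 4 genes named by rule with the largest called changes, 2 higher and 2 lower, among those with a single listed start. Aplnr and Car3, among the greatest increases, had no listed start. Of the 16 genes named by rule and called, 8 had a start in the RefSeq table (build GRCm38.p6) and 6 had exactly 1. Each line gives the 250 bases before the start, 5′ to 3′ on the gene's strand. Capitals mark matches on either strand to the TATA box motif TATAAA, to the CCAAT box, to the GC box motif GGGCGG or to the AP-1 motif TGANTCA, and overlapping matches run together. Vegfc is at chr8:54077282-54077531 on the + strand, Hacd1 at chr2:14056036-14056285 on the - strand, Tbrg3 at chr15:82898462-82898711 on the - strand and Stard5 at chr7:83631767-83632016 on the + strand.
Vegfc: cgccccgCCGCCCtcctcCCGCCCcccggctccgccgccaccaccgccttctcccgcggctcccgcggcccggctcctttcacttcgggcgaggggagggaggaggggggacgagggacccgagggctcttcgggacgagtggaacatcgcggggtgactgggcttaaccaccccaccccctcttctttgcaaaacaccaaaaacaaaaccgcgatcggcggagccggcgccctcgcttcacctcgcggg
Hacd1: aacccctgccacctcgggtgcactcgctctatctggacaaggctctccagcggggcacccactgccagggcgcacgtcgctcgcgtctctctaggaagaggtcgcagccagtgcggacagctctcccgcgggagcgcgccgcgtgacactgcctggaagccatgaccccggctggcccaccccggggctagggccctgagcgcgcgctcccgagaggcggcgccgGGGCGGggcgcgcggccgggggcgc
Tbrg3: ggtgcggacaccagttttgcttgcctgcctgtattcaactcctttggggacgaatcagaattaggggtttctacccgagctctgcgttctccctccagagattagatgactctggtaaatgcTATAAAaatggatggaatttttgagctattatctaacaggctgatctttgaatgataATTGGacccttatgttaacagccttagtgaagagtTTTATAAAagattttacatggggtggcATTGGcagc
Stard5: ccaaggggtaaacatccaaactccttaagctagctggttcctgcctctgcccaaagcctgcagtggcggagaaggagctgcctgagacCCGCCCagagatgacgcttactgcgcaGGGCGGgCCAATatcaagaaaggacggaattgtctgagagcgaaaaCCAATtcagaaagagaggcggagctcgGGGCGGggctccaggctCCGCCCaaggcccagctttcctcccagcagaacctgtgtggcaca
The Vegfc window held 2 GGGCGG matches and 71.6% G and C, and the Hacd1 window 1 GGGCGG match and 75.2%. Tbrg3 had 3 matches to TATAAA and 2 to the CCAAT box in a window of 42.4% G and C, and Stard5 had 2 matches to the CCAAT box and 4 to GGGCGG in 59.2%. None of the 4 windows held TGANTCA. Over the same window of all 32851 promoters in the table, 12.4% held the TATA box motif, 33.8% the CCAAT box, 32.7% the GC box motif and 6.75% the AP-1 motif. A match is a description of the letters only.

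Each array gives 1 linear signal for each of 45037 probe sets, scaled by the authors so that the 2% trimmed mean is the same on every array. Of these transcripts, 34945 name a single gene, and for each of 18193 genes the brightest such probe set was used. Lymphocyte genes were high on all 10 arrays. The B cell marker Ms4a1 lay between the 96.8th and 99.2nd percentile of each array's signals, the T cell gene Cd3e between the 97.2nd and 98.8th, and Cd4 between the 88.1st and 96.6th. Log2 signals correlated at 0.705 to 0.817 among AAT arrays, at 0.715 between the DIA arrays and at 0.774 to 0.890 among NOR arrays (Pearson, across transcripts). Pairs of an AAT and a DIA array correlated at 0.637 to 0.817, a range that overlaps the one within AAT.

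The scale of the arrays varied. The median signal was 178, 92.3, 130 and 94.1 on the AAT arrays, against 279 and 152 on the DIA arrays, and 179 to 265 on the NOR arrays. The median was lower on AAT 2, AAT 3 and AAT 4 than on either DIA array, while AAT 1 lay between the DIA arrays. The 20th percentile of signal was 40.5, 18.7, 22.5 and 18.1 on the AAT arrays, against 59.6 and 28.8 on the DIA arrays, and the 95th percentile was 3062, 3535, 3337 and 3715 against 2276 and 3047. The median log2 change of all transcripts, AAT minus DIA, was −0.58 as deposited, −0.04 after quantile normalization and 0.21 after each array was centred on its median. In the lowest quintile of mean signal (median signal 26.9) the median change was −0.86, and in the highest quintile (median signal 1287) it was 0.17. Log2 changes are therefore given relative to −0.58, while adjusted p-values are those of the uncorrected change, and the median over genes on that scale was 0.26. The single value of −0.58 does not follow signal level. For genes of the highest quintile, rises are larger and falls smaller on this scale than relative to that quintile's median of 0.17. As signs of RNA quality, the 3' to 5' ratio of the Gapdh control was 7.43, 20.6, 8.30 and 25.0 on AAT arrays, 10.8 and 10 on DIA arrays, and 5.55 to 8.01 on NOR arrays, the AAT arrays lying on both sides of the DIA arrays. The actin ratio was 1.67, 1.23, 1.29 and 2.01 on AAT arrays, 0.881 and 1.1 on DIA arrays, and 0.94 to 2.31 on NOR arrays, so that AAT was above DIA without overlap. The part of RNA quality in the results was not tested.

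**Figure D1:**
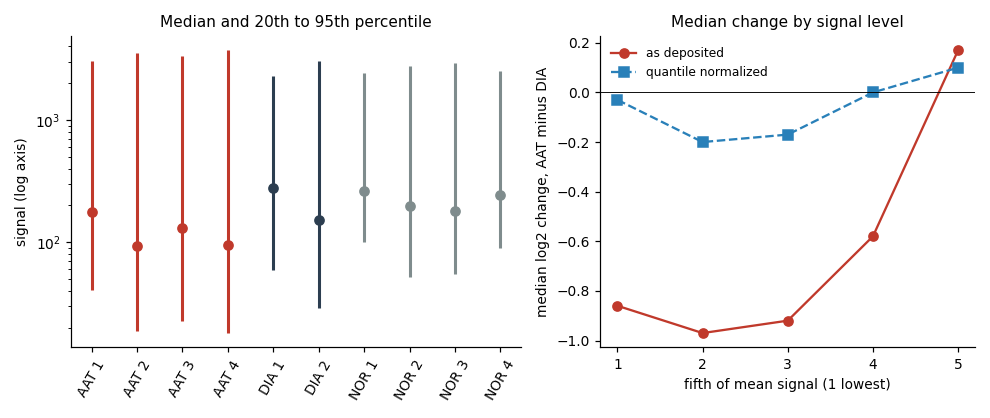
Left, the median (point) and the 20th to 95th percentile (line) of signal on each PLN array, on a log axis. Right, the median log2 change, AAT minus DIA, in each quintile of mean signal, as deposited and after quantile normalization. The deposited change runs from −0.86 in the lowest quintile to 0.17 in the highest, and the normalized one stays between −0.20 and 0.10.

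At an adjusted p under 0.05 (limma, Benjamini-Hochberg over all transcripts), 45 transcripts differed between AAT and DIA nodes. AAT was higher for 35 (0.0777% of transcripts, naming 34 genes) and lower for 10 (0.0222%, naming 7 genes). Over genes, by their representative probe sets, 33 were higher (0.181%) and 4 lower (0.022%). A looser criterion, a fold change over 2 with an unadjusted p of at most 0.05, was passed by 2174 transcripts higher (4.83%) and 5275 lower (11.7%) in AAT nodes. Relative to the median change the split turned round, to 5083 higher (11.3%) and 1727 lower (3.83%), and after quantile normalization it was 3408 higher and 2369 lower. Over genes the looser criterion was passed by 7.59% higher and 8.57% lower, the shares against which the gene lists are read. They take no account of signal level, on which passing depended. In the highest quintile of mean signal 1397 of 9008 transcripts passed upward and 670 downward. In the lowest quintile 52 of 9007 passed upward and 700 downward. Lists of bright genes were not set against genes of like signal. Relative to the median change the shares over all genes were 17.1% and 2.59%, and after quantile normalization 9.87% and 4.3%. As measured, they were 7.29% and 12.5% without AAT 1, and 8.55% and 9.49% without AAT 2. Without AAT 3 they were 7.96% and 8.87%, and without AAT 4 6.17% and 6.69%. Without 1 NOR array they were 7.09% to 7.41% and 7.2% to 7.68%. Both shares fell without DIA 1 and rose without DIA 2, fits that hold 1 DIA array. List counts in each setting are to be read beside these shifts. AAT arrays did not overlap DIA arrays, being all higher or all lower, for 5.3% and 14.2% of transcripts and for 8.04% and 10.2% of genes, and for 11.5% and 5.38% of transcripts and 15.9% and 3.79% of genes after centring. A change above the median change was seen for 50% of transcripts, by construction, and for 58.1% of genes. The median standard error (SE) of a change was 0.957 on the log2 scale, with 4 AAT and 2 DIA arrays. The call count rested on single arrays: it was 1 without AAT 3 or without AAT 4, 3 without DIA 1, 866 without DIA 2, 2 without NOR 1 or NOR 3, 16 without NOR 2, 20 without NOR 4, 182 without AAT 1 and 159 without AAT 2. Array DIA 1 correlated at no more than 0.715 with any other array, and AAT 3 had the highest signals of acinar pancreas genes, given further on. Without both, a choice made after seeing the data, 1 transcript was called.

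Of the genes named by rule, Aplnr, Vegfc and Car3 had the greatest increases. Aplnr, the apelin receptor of endothelial cells, had signals of 7877, 1689, 7786 and 7703 in AAT nodes, against 518 and 5.26 in DIA nodes and 608 to 2438 in NOR nodes. AAT nodes did not overlap DIA nodes, as the naming rule requires, and AAT 2 lay within the NOR range. The DIA arrays were far apart from each other. The log2 change was 7.25 ± 1.11 (SE) relative to the median (adjusted p = 0.0363), 10.28 without DIA 1 and 4.32 without DIA 2, and Aplnr was the transcript still called without both AAT 3 and DIA 1 (10.1, adjusted p = 0.0018). A lower-signal probe set of Aplnr gave 2.15 ± 0.99 and was not called. Vegfc had signals of 814, 2173, 1655 and 3301 in AAT nodes, 31.5 and 35.6 in DIA nodes and 592 to 1082 in NOR nodes. Both DIA arrays were far below all others. Its change of 6.30 ± 0.57 (adjusted p = 0.000146) had the smallest adjusted p of all transcripts and stayed between 5.15 and 6.79 over 20 alternatives, with the call lost without AAT 3 and DIA 1 (adjusted p = 0.0581) and in a fit without a variance trend (adjusted p = 0.0848). The Vegfc signal lay below the 20th percentile of its array on DIA 1 and little above it on DIA 2, so the size of the change is approximate. The same holds for Aplnr on DIA 2, and for Hacd1, Ldhb, Ces1d, Cryab and Sorbs3 on DIA 1, where signals lay below that percentile. Both other Vegfc probe sets had low signals and uncalled changes of 0.65 ± 0.98 and 1.2 ± 1.24, and the called one is of a type whose probes can also match other sequences.

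**Figure D2:**
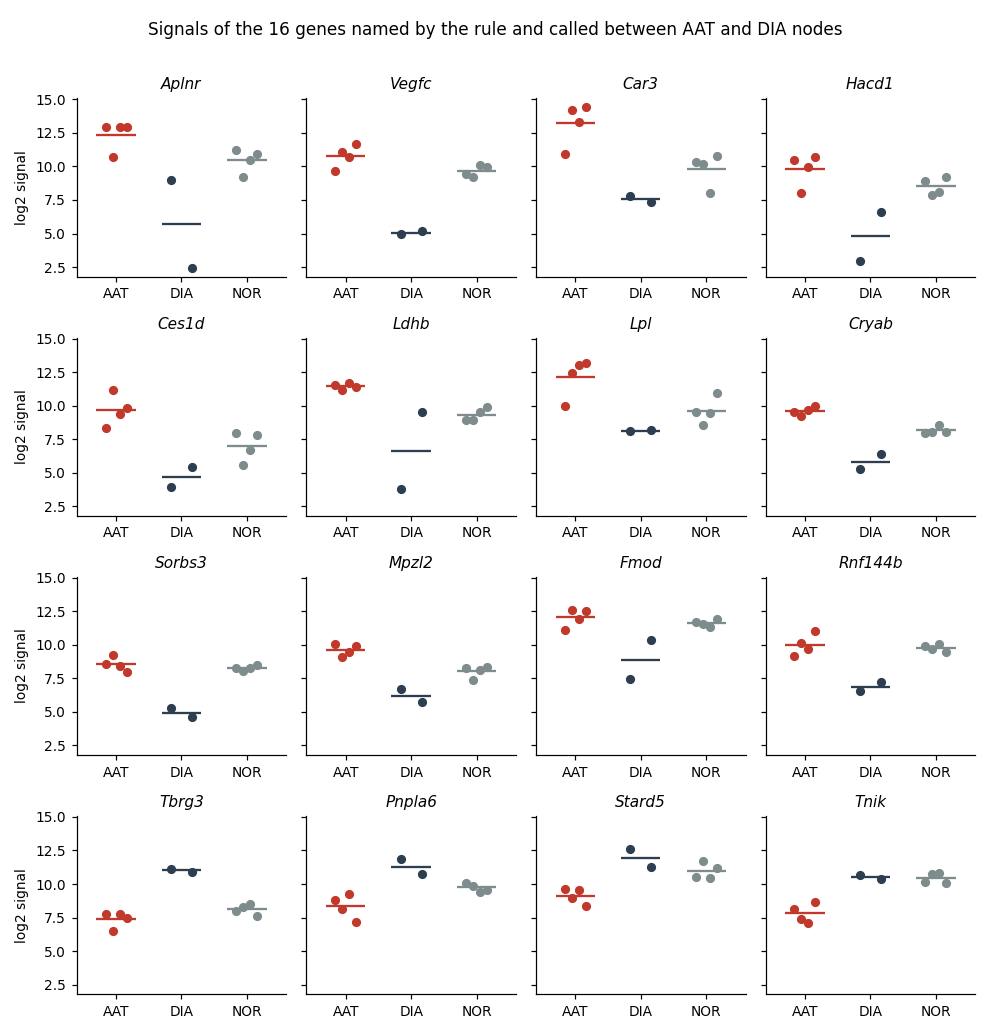
Log2 signal of the 16 genes named by rule and called, in AAT (4 arrays), DIA (2) and NOR (4) nodes. Points are arrays and lines are group means. The AAT points lie above the DIA points for 12 genes and below them for 4, and that they do not overlap is part of the rule by which the genes were named.

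Car3, a carbonic anhydrase that fat and muscle make in quantity, had signals of 1909, 19290, 10030 and 22540 in AAT nodes, against 228 and 166 in DIA nodes and 256 to 1756 in NOR nodes. AAT 1 was the lowest AAT array and still above every DIA and NOR array. The change was 6.20 ± 0.80 (adjusted p = 0.0189). Other probe sets of Car3, of lower mean signal, gave 0.58 ± 1.01, 1.64 ± 1.31 and 3.87 ± 1.25 and were not called. Lpl, the lipase that frees fatty acids from lipoproteins at the vessel wall, had signals of 981, 5481, 8555 and 9089 in AAT nodes, 274 and 284 in DIA nodes and 368 to 1958 in NOR nodes. The change was 4.60 ± 0.73 (adjusted p = 0.0385), with AAT 1 again lowest. The other Lpl probe set gave 0.43 ± 0.84 and was not called. Fabp4, the fatty acid carrier of adipocytes, endothelium and macrophages, had signals of 6976, 20420, 22830 and 26980 in AAT nodes, against 2972 and 1977 in DIA nodes and 2541 to 4612 in NOR nodes. All AAT arrays exceeded all others, and the change was 3.41 ± 0.49 (adjusted p = 0.0363). For Fabp4 the change as measured was 2.83, and after quantile normalization it was 2.24 (limma, adjusted p = 0.0816). Ces1d, a carboxylesterase that hydrolyses triglyceride, rose by 5.59 ± 0.89 (325, 2329, 676 and 889 in AAT nodes, against 15.1 and 43.1 in DIA nodes). Hacd1, an enzyme of very long chain fatty acid elongation, rose by 5.60 ± 0.88, with DIA signals of only 7.94 and 95.6. Uncalled changes were 0.32 ± 1.46 and 1.93 ± 1.05 for the other Ces1d probe sets and 1.23 ± 0.68 for the other of Hacd1. Without DIA 1 the changes were 6.15 for Car3, 4.30 for Lpl, 4.55 for Ces1d and 3.52 for Hacd1, none of them called (adjusted p = 0.342 to 0.543). Of the 16 named genes with a call, 2 kept it without DIA 1, 1 without AAT 3 or without AAT 4, 2 without NOR 1 or NOR 3, and 8 without NOR 2 or NOR 4. Car3, Hacd1 and Ces1d are named by the rule, and Fabp4 as a member of the adipocyte list.

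Adipocyte markers are given beside these genes. The 18 measured adipocyte markers summed to 20100 to 60440 on AAT arrays, 13750 to 14600 on DIA arrays and 11150 to 14090 on NOR arrays. Lpl and Fabp4 are themselves members. The other 16 markers summed to 12150, 28430, 16800 and 24380 on the AAT arrays, against 10510 and 12340 on the DIA arrays and 7518 to 9125 on the NOR arrays, so that AAT 1 lay within the DIA range. Of the 18, 2 were called (Lpl and Fabp4), 4 passed the looser criterion upward and none downward, and their median change was 0.85, against 0.26 for all genes. Adipoq, the adipocyte hormone adiponectin, had signals of 46.2, 1570, 141 and 606 in AAT nodes, against 207 and 73.4 in DIA nodes and 61.9 to 249 in NOR nodes. It was high on AAT 2 and AAT 4, within the DIA range on AAT 3 and below both DIA arrays on AAT 1, with a change of 1.77 ± 1.08 (adjusted p = 0.583). None of the markers Adipoq, Lep and Fabp4 was at the floor on any array. The part of adipocyte RNA in the changes of Car3, Lpl, Ces1d and Fabp4 was not tested, and in tissue RNA more cells of a type and more RNA per cell cannot be told apart.

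Genes of other roles made up the rest of the increases. Ldhb, a subunit of lactate dehydrogenase, had signals of 2898, 2249, 3349 and 2701 in AAT nodes, against 13.8 and 723 in DIA nodes and 489 to 930 in NOR nodes. The AAT arrays were close together while the DIA arrays were far apart, and the change of 5.38 ± 0.92 (adjusted p = 0.0466) was 8.61 without DIA 2 and 2.24, no longer called, without DIA 1. Cryab, a small heat shock protein, had signals of 729, 593, 817 and 1026 in AAT nodes, 38.4 and 84.4 in DIA nodes and 248 to 382 in NOR nodes. Its change was 4.35 ± 0.60 (adjusted p = 0.0363). Fmod, a collagen-binding proteoglycan, had signals of 2184, 6336, 3970 and 5818 in AAT nodes, against 173 and 1296 in DIA nodes and 2605 to 3968 in NOR nodes, so that AAT and NOR nodes overlapped and DIA nodes lay below both. It rose by 3.74 ± 0.60 (adjusted p = 0.0462), and a second of its 6 probe sets was called too (3.90 ± 0.63, adjusted p = 0.0456). The adhesion adaptor Sorbs3 rose by 4.19 ± 0.68, the adhesion molecule Mpzl2 by 4.00 ± 0.61 and the ubiquitin ligase Rnf144b by 3.70 ± 0.54. Sorbs3 and Rnf144b had AAT signals (254 to 601 and 583 to 2043) that spanned those of NOR nodes (265 to 366 and 716 to 1064).

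The decreases that were called and named by rule were 4. After each array was centred on its median, none of the 4 was called (limma, adjusted p = 0.0869 to 0.163). No other transcript was called lower in that fit. Increases lost calls there too, and of the 16 named genes with a call 6 kept it. Hacd1, Ces1d, Rnf144b, Lpl, Ldhb and Fmod were no longer called (limma, adjusted p = 0.0521 to 0.0827). Nor were Fabp4, Csf1r, Lepr and Tjp1, called genes given in other paragraphs (limma, adjusted p = 0.0703 to 0.0754). Tbrg3 had signals of 212, 89.1, 223 and 174 in AAT nodes, against 2241 and 1918 in DIA nodes and 200 to 372 in NOR nodes. Both DIA arrays stood apart from all others, and the change was −3.07 ± 0.60 (adjusted p = 0.0363). Stard5, which binds sterols, had signals of 804, 492, 768 and 337 in AAT nodes, 6373 and 2430 in DIA nodes and 1409 to 3308 in NOR nodes. AAT nodes were below both other groups, and the change was −2.22 ± 0.52 (adjusted p = 0.0456), while 2 of its 3 other probe sets gave 2.47 and 2.00. Tnik, a kinase that binds Traf2 and Nck, had signals of 278, 169, 135 and 398 in AAT nodes, against 1666 and 1353 in DIA nodes and 1066 to 1772 in NOR nodes. Here DIA and NOR nodes were alike in range and AAT nodes lower (−2.16 ± 0.53, adjusted p = 0.0483), and again 2 other probe sets of 3 went the other way (1.17 and 2.30). Pnpla6, a lysophospholipase, fell by 2.38 ± 0.57 on the log2 scale (adjusted p = 0.0483). The other 8 genes named by rule were lower but not called, at −3.64 for the receptor Adgrb1, −3.41 for Prm1, −2.84 for the cell cycle factor E2f1 and −2.35 for Il2rb, the beta chain of the receptor for IL-2 and IL-15. Il2rb had signals of 200, 191, 299 and 151 in AAT nodes, against 2713 and 896 in DIA nodes (adjusted p = 0.0707), with no overlap.

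NOR nodes place these genes, with the reminder that the comparisons with NOR share the AAT or DIA arrays and are not independent of the one above. Relative to their own median changes, Vegfc was −4.49 in DIA against NOR nodes (adjusted p = 0.00158) and 1.84 in AAT against NOR nodes (adjusted p = 0.146). Tbrg3 was 3.01 in DIA against NOR nodes (adjusted p = 0.0744) and −0.03 in AAT against NOR nodes (adjusted p = 0.342). Car3 was 4.12 in AAT against NOR nodes (adjusted p = 0.0143) and −2.11 in DIA against NOR nodes (adjusted p = 0.333), and Lpl was 3.25 (adjusted p = 0.0287) and −1.38 (adjusted p = 0.514). Tnik was −1.91 in AAT against NOR nodes (adjusted p = 0.0067) and 0.23 in DIA against NOR nodes (adjusted p = 0.968). In fat, with 2 arrays a group, none of the named genes had a change under AAT that differed from its change in PLNs at an adjusted p under 0.05, and for Vegfc the difference of the changes was 5.63 (adjusted p = 0.293).

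Among gene lists, lymphatic endothelium had the highest median change, 2.03 over 10 measured genes, against 0.26 over all genes, and 1.51 after quantile normalization. Vegfc, a secreted ligand already named above, was the only call, and 5 of the 10 passed the looser criterion upward and none downward. Reln, a secreted glycoprotein of lymphatic vessels, had signals of 466, 891, 847 and 777 in AAT nodes, against 227 and 86.4 in DIA nodes and 155 to 362 in NOR nodes. All AAT arrays were above all others (2.95 ± 0.63, adjusted p = 0.117). Ackr4, the scavenging receptor for CCL19 and CCL21, had signals of 3985, 4597, 3739 and 8495 in AAT nodes, 1033 and 2321 in DIA nodes and 1119 to 2369 in NOR nodes, also without overlap (2.25 ± 0.48, adjusted p = 0.135). Mmrn1 gave 2.65 ± 0.70, Lyve1 2.15 ± 0.65 and Prox1, the master transcription factor of this lineage, 1.63 ± 0.75. Lyve1 and Prox1 were not called (adjusted p = 0.242 and 0.476), and for both AAT and DIA nodes overlapped. Lyve1 had signals of 605, 4682, 1382 and 2641 in AAT nodes, 755 and 486 in DIA nodes and 649 to 2090 in NOR nodes. Prox1 had 181, 573, 869 and 404 in AAT nodes, 443 and 100 in DIA nodes and 161 to 432 in NOR nodes. By array the list's median stood at −0.01, 2.24, 1.2 and 1.88 in AAT nodes and at −0.46 and −0.94 in DIA nodes, relative to NOR nodes and to the array's own median. AAT 1 was lower than the other AAT arrays and above both DIA arrays. The median ranged from 1.52 without AAT 2 to 2.40 without AAT 1, and the count was 3 without DIA 2.

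The 10 VEGF ligands and receptors had a median of 1.05, with the same Vegfc probe set called and 3 members past the looser criterion upward. Kdr had signals of 282, 1450, 496 and 348 in AAT nodes, against 87.9 and 122 in DIA nodes and 295 to 695 in NOR nodes. DIA arrays were below all others (2.90 ± 0.67, adjusted p = 0.137). Vegfa, the growth factor of blood vessels, had signals of 219, 265, 355 and 284 in AAT nodes, 37.9 and 171 in DIA nodes and 259 to 449 in NOR nodes (2.36 ± 0.70, adjusted p = 0.224), and its other probe set gave 0.03 ± 0.79. Flt4 was 1.05 ± 0.68. The count was 2 without DIA 1. Blood endothelium (20 genes, median 0.67) held Aplnr as its called gene, 3 members upward and 2 downward past the looser criterion, and Tek, the angiopoietin receptor, at 3.52 ± 0.86 (adjusted p = 0.138). Relative to the median change 6 members passed upward and 0 downward. Glycam1, a mucin of high endothelial venules through which lymphocytes enter, gave 1.58 ± 0.45. By array the blood endothelium median was −0.66, 1.36, 0.53 and 0.12 in AAT nodes and 0.07 and −0.83 in DIA nodes, AAT 1 lying between the DIA arrays. The count downward was 0 without AAT 3, DIA 1, NOR 1, NOR 2 or NOR 4 and 4 without AAT 2, and that upward was 2 without DIA 1.

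**Figure D3:**
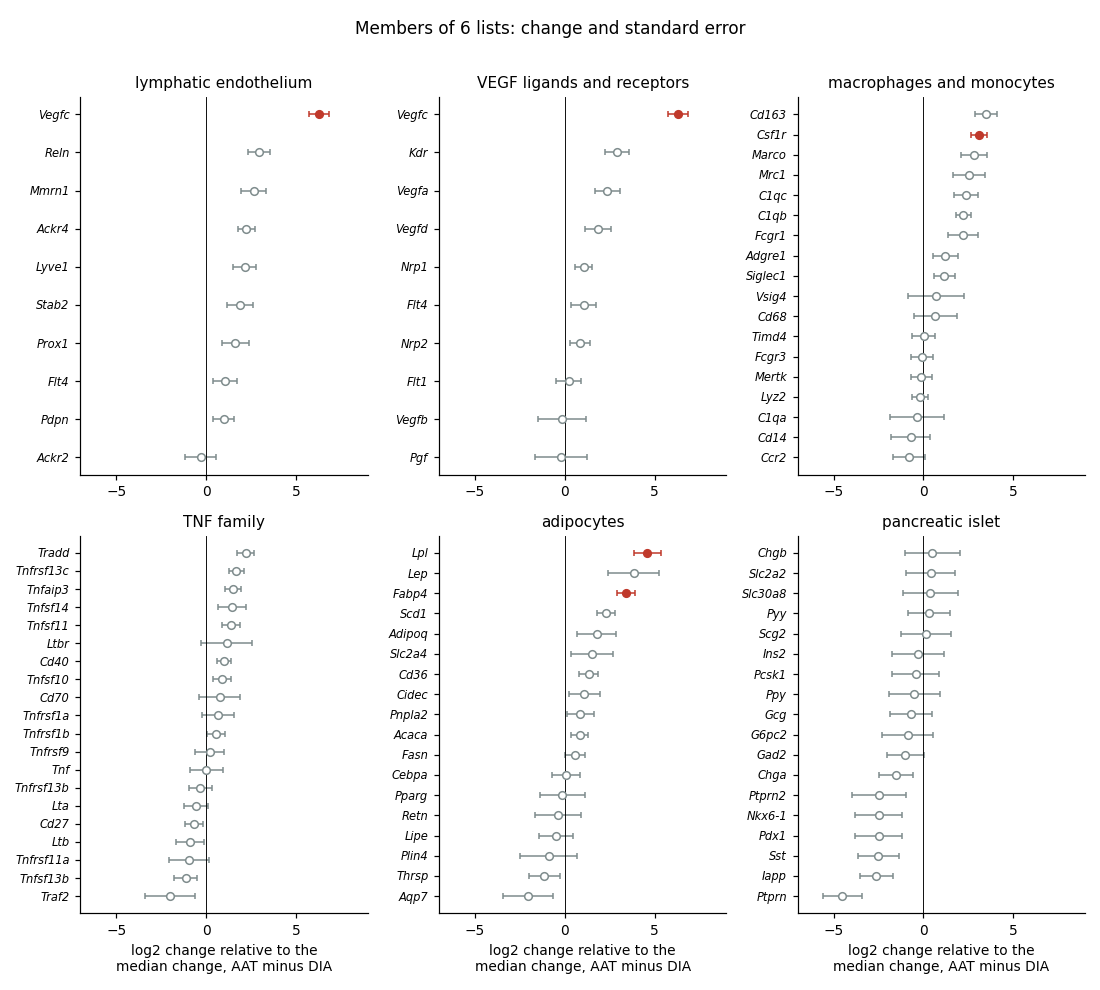
Log2 change relative to the median change (point) and its standard error (bar), AAT minus DIA, for each measured member of 6 lists. Filled red points were called. Lymphatic members lie to the right of 0 except 1, TNF family members lie on both sides, and the islet members with the greatest changes lie to the left.

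Node stroma and matrix genes had medians above that of all genes. After quantile normalization these medians were 0.84 and 0.44, against 0.09 over all genes. By array, the matrix list's median relative to NOR was −0.68, 1.47, 0.48 and 0.87 in AAT nodes, against −0.39 and −0.71 in DIA nodes, so that AAT 1 lay within the DIA range. Of 10 node stroma genes (median 1.21), Lepr, the leptin receptor, was called, with signals of 3389, 6106, 9723 and 9065 in AAT nodes, against 1181 and 1124 in DIA nodes and 1562 to 2403 in NOR nodes (3.09 ± 0.45, adjusted p = 0.0363). Every AAT array exceeded every other. As measured the Lepr change was 2.50, and after quantile normalization 2.22 (limma, adjusted p = 0.0469). Il7, the T cell survival cytokine of reticular cells, gave 1.88 ± 0.59, and Cxcl13, which draws B cells into follicles, −0.27 ± 0.54. The upward count of 2 was 5 without DIA 2 and 1 without AAT 4, DIA 1, NOR 3 or NOR 4. Matrix and fibroblast genes (29, median 1.09) had 5 members upward, none downward and none called, and 9 upward without AAT 3 and DIA 1. Dpt, a matrix protein that organises collagen, had signals of 763, 4935, 2971 and 5867 in AAT nodes, 344 and 354 in DIA nodes and 1004 to 2112 in NOR nodes (3.61 ± 0.62, adjusted p = 0.0696). Tnc (3.56 ± 0.76) and Col3a1 (3.09 ± 0.62) also did not overlap between the groups. The count was 8 without DIA 1 and 3 without DIA 2.

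Of 18 macrophage and monocyte genes (median 0.92, and 0.62 after quantile normalization), 6 passed the looser criterion upward and none downward. Csf1r, the receptor for the growth factor M-CSF, was called. Csf1r had signals of 22690, 20140, 34370 and 27020 in AAT nodes, against 3008 and 6870 in DIA nodes and 6195 to 11750 in NOR nodes. The AAT arrays were above all others (3.07 ± 0.44, adjusted p = 0.0363), though another of its probe sets gave −0.83. Its change was 2.49 as measured and 1.81 after quantile normalization, where it was not called (limma, adjusted p = 0.0586). Cd163, the haemoglobin scavenger receptor, had signals of 431, 969, 1138 and 949 in AAT nodes, 65.1 and 190 in DIA nodes and 345 to 705 in NOR nodes (3.46 ± 0.61, adjusted p = 0.0740). C1qb, a chain of complement C1q, had signals of 13930, 19990, 19460 and 24870 in AAT nodes, against 4819 and 7919 in DIA nodes and 8104 to 11920 in NOR nodes (2.22 ± 0.41, adjusted p = 0.0989). Marco, a scavenger receptor of macrophages, gave 2.80 ± 0.73. Lyz2, expressed by most myeloid cells, gave −0.19 ± 0.47, with 18330, 37190, 42950 and 17630 in AAT nodes and 41360 and 50670 in DIA nodes. The macrophage list therefore held genes above and genes near the median change. The count was 4 without DIA 2 and without both AAT 3 and DIA 1.

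Tnf, the cytokine that anti-TNF-α antibody blocks, had low signals. Its signals were 24.5, 55.4, 36.0 and 88.8 in AAT nodes, against 42.7 and 107 in DIA nodes and 233 to 382 in NOR nodes. AAT and DIA nodes overlapped and both were below NOR nodes, and the change between AAT and DIA was 0.01 ± 0.92 relative to the median (adjusted p = 0.774). Of the 20 measured TNF family genes (median 0.60) none was called. Relative to the median change 5 passed the looser criterion upward and 0 downward. As measured, 2 passed it upward and 2 downward. Upward were Tradd, the adaptor of the TNF receptor (2.20 ± 0.47, adjusted p = 0.137), and Tnfrsf13c, the BAFF receptor (1.68 ± 0.41). Tnfsf13b, its ligand BAFF, had signals of 444, 286, 170 and 168 in AAT nodes, against 1441 and 452 in DIA nodes (−1.14 ± 0.63), and Cd27, a costimulatory receptor, gave −0.66 ± 0.51. Tnfrsf1a gave 0.65 ± 0.89, Tnfrsf1b 0.54 ± 0.49, Lta −0.56 ± 0.66, Ltb −0.89 ± 0.78 and Ltbr 1.14 ± 1.40. The remaining members ran from −1.98 for Traf2 to 1.5 for Tnfaip3. The counts were 5 and 2 without DIA 2, 3 and 2 without AAT 1, 2 and 4 without AAT 2, 3 and 3 without AAT 3, 1 and 1 without AAT 4, and 1 and 0 without DIA 1.

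The study's network hubs were chosen on these samples and give no independent evidence. The study ranked them by their connections to other genes, and several were not found differentially expressed themselves. The RNA changes of hubs therefore do not test that ranking. Of 8 measured (median 0.55), Vegfa and Mapk14, the p38 kinase, passed the looser criterion and none was called. Mapk14 had signals of 4413, 7482, 3017 and 6847 in AAT nodes, 1426 and 2796 in DIA nodes and 4561 to 6649 in NOR nodes (1.94 ± 0.45, adjusted p = 0.170), and 2 of its 5 other probe sets had the same direction. Il6 gave 0.83 ± 1.61, Myc 0.59 ± 0.41, Akt1 0.50 ± 1.01, Tgfb1 −0.69 ± 0.70 and Il1b −0.85 ± 0.98. Without DIA 1 neither Vegfa nor Mapk14 passed. Of 14 NF-kB genes (median 0.27, −0.22 after quantile normalization) 5 passed upward and 1 downward relative to the median change. As measured, 2 NF-kB genes passed upward and 3 downward, among them the inhibitor Nfkbie at 2.57 ± 0.52 and Map3k14, the NIK kinase, at −1.69 ± 0.70. Their counts were 0 and 1 without DIA 1, 3 and 3 without DIA 2, 4 and 4 without AAT 2, and 1 and 2 without AAT 1, AAT 3 or AAT 4. Socs3, the inhibitor of IL-6 signalling, had signals of 4936, 2604, 6604 and 6546 in AAT nodes, against 1870 and 1044 in DIA nodes and 865 to 1263 in NOR nodes (2.38 ± 0.46, adjusted p = 0.105). It was above both other groups on all AAT arrays. Il33, an alarmin of reticular cells, gave 2.17 ± 0.53, Il6ra −1.16 ± 0.56 and Il1rn, the IL-1 antagonist, −1.13 ± 0.77.

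**Figure D4:**
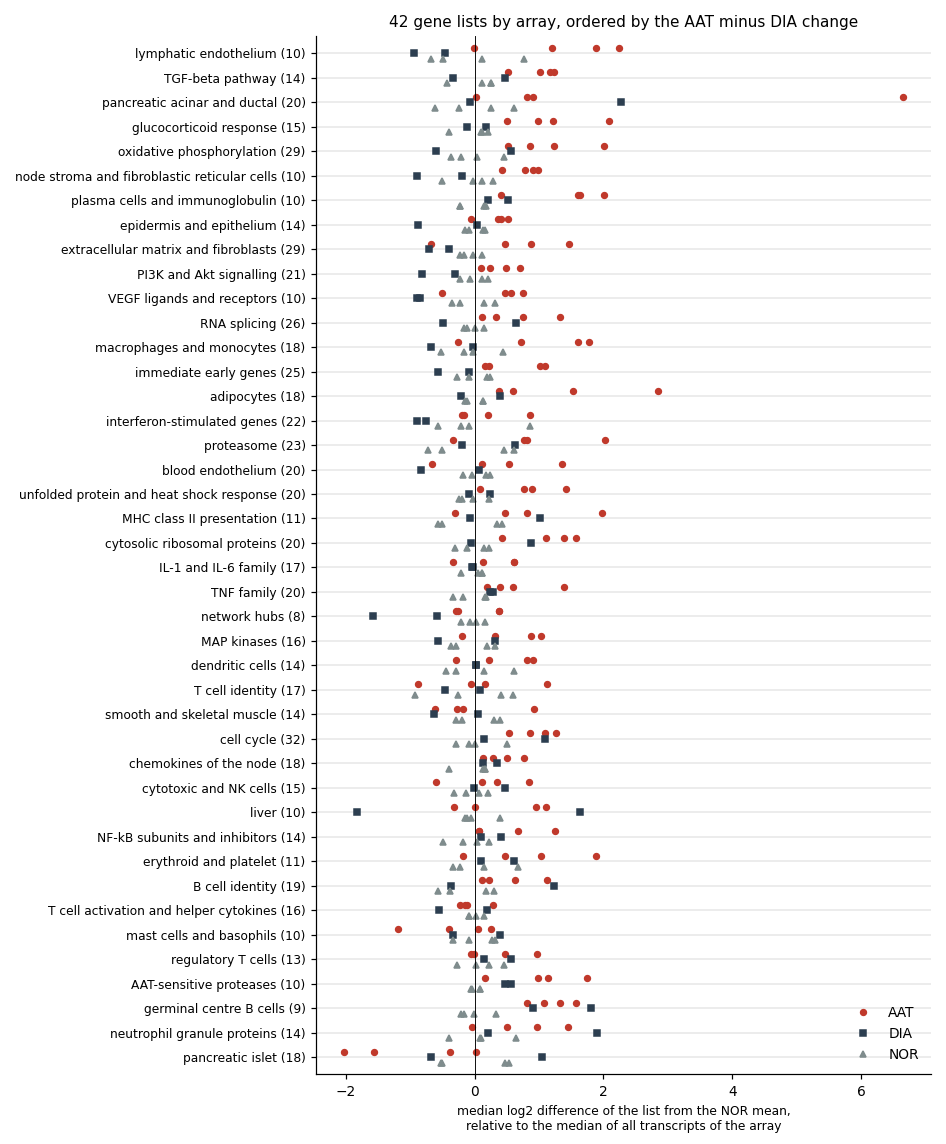
Median over each of 42 gene lists (number of measured genes in brackets) of the log2 difference from the NOR mean, relative to the median of all transcripts of the array, for AAT, DIA and NOR arrays. Lists run from the highest AAT minus DIA change at the top to the lowest at the bottom. In the acinar list AAT 3 stands at 6.65, against 2.28 for DIA 1.

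Proteases that AAT inhibits, and the AAT genes, had no call. The 10 measured genes of AAT-sensitive proteases and AAT itself had a median of 0.09. Elane, neutrophil elastase, had signals of 19.9, 24.8, 199 and 64.4 in AAT nodes, 303 and 72.7 in DIA nodes and 2.42 to 134 in NOR nodes (−0.98 ± 1.48). Prtn3, proteinase 3, gave −0.17 ± 1.31 and Ctsg, cathepsin G, 1.99 ± 1.45. Klk1, tissue kallikrein, had signals of 1293, 1218, 1373 and 1112 in AAT nodes, against 659 and 805 in DIA nodes and 334 to 642 in NOR nodes. The AAT arrays lay close together and above all others, at 1.36 ± 0.46 (adjusted p = 0.396). Plau gave −0.32 ± 0.61, Plat 1.82 ± 0.94, F2 −1.53 ± 1.29, Cela1 3.79 ± 1.83 and, of the mouse AAT genes, Serpina1b 0.35 ± 0.42 and Serpina1c −2.26 ± 1.36. Neutrophil granule genes (14, median −0.14) had 2 downward (1 relative to the median change) and none called, with 11 of the 14 below the median signal. Ngp, a granule protein, had signals of 22.7, 6.91, 37.4 and 63.9 in AAT nodes, against 770 and 143 in DIA nodes (−3.16 ± 1.09). The downward count was 0 without DIA 1, with 1 upward, 5 without AAT 3, 3 without AAT 1 or DIA 2, and 1 without AAT 4 or NOR 4.

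No lymphocyte identity gene was called. B cell genes (19) had a median of 0.21 and T cell genes (17) of 0.39, against 0.26 over all genes, and after quantile normalization −0.71 and −0.29. Ms4a1, the B cell protein CD20, had signals of 14290, 6353, 8764 and 6216 in AAT nodes, 5642 and 17530 in DIA nodes and 4681 to 7925 in NOR nodes, with overlap (0.34 ± 0.48). Cd3e, a chain of the T cell receptor complex, had signals of 7278, 10170, 7126 and 12440 in AAT nodes, against 3622 and 5802 in DIA nodes and 5156 to 8979 in NOR nodes (1.56 ± 0.42, adjusted p = 0.251). Cd8b1 gave −0.86 ± 0.60. In the regulatory T cell list (13, median 0.10), Itgae, the integrin CD103, had signals of 9748, 6265, 14470 and 15390 in AAT nodes, 1964 and 3896 in DIA nodes and 3033 to 6587 in NOR nodes (2.55 ± 0.47, adjusted p = 0.0908). Il2ra, the receptor chain CD25, had signals of 629, 333, 324 and 134 in AAT nodes, against 1527 and 912 in DIA nodes and 376 to 1246 in NOR nodes (−1.35 ± 0.62, adjusted p = 0.164), and Tnfrsf18 gave −0.80 ± 0.51. These members of 1 list thus lay on both sides. Cytotoxic genes (15, median 0.34) had 2 downward, the pore-forming protein Prf1 (−1.16 ± 0.60) and Nkg7 (−1.48 ± 0.80), but 0 relative to the median change. Plasma cell genes (10, median 1.21) had Jchain, which joins IgM and IgA polymers, at 2.00 ± 0.45. In all 1 plasma cell gene was upward, and 5 relative to the median change. Without DIA 1 the cytotoxic count downward and the plasma cell count upward were both 0, and after quantile normalization they were 1 and 2. B cell, T cell and regulatory T cell medians had the opposite sign under 7, 5 and 8 settings of 22, listed in that order.

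Housekeeping and response lists had no called member, and the sign of several medians depended on the scaling. The medians of proteasome (0.73), RNA splicing (0.92), ribosomal protein (0.60) and unfolded protein response genes (0.65), above 0.26 as deposited, were −0.08, −0.10, −0.22 and −0.26 after quantile normalization, below the 0.09 of all genes there. Oxidative phosphorylation (29, median 1.32) had 12 members upward and none downward or called, but 3 upward and 1 downward after quantile normalization (median 0.47), 3 upward without DIA 1 and 8 upward and 3 downward without AAT 2. Sdha, a subunit of complex II, had signals of 13290, 16950, 19920 and 22650 in AAT nodes, against 3441 and 8945 in DIA nodes and 8642 to 11320 in NOR nodes (2.27 ± 0.43, adjusted p = 0.105). It did not overlap, and Cox5a, of complex IV, gave 2.53 ± 0.54. Proteasome genes (23, median 0.73) had 5 upward and 1 downward, with Psma5 at 2.33 ± 0.39 (adjusted p = 0.0850), and after quantile normalization 3 and 3. Without DIA 1 they had 2 and 1, without DIA 2 8 and 2, and without AAT 2 5 and 4. Glucocorticoid response genes (15, median 1.32) had 5 upward and none downward. Mt1, a metallothionein, had signals of 522, 813, 3163 and 1355 in AAT nodes, 89.5 and 429 in DIA nodes and 222 to 431 in NOR nodes (3.15 ± 0.71), all AAT arrays being highest, and the count was 3 without DIA 1. Dusp1, a phosphatase that switches off MAP kinases, had signals of 2457, 3731, 13330 and 9151 in AAT nodes, against 1555 and 1658 in DIA nodes and 503 to 1162 in NOR nodes (2.43 ± 0.57, adjusted p = 0.150). Of 25 immediate early genes (median 0.87), 5 were upward and 1 downward, led by Fosl2, an AP-1 subunit, with signals of 1762, 2204, 2843 and 3911 in AAT nodes and 378 and 705 in DIA nodes (2.89 ± 0.45, adjusted p = 0.0561), while Nr4a2 gave −1.56 ± 0.70.

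Interferon-stimulated genes (22, median 0.77) had 5 upward and none downward or called. Rtp4 had signals of 1817, 512, 1032 and 1071 in AAT nodes, against 129 and 423 in DIA nodes and 624 to 1451 in NOR nodes (2.69 ± 0.59, adjusted p = 0.129), and Ifit1, which binds viral RNA, gave 3.93 ± 1.08. DIA 1 held the lowest signal of both genes, and no member passed without it, nor without AAT 3 and DIA 1, while the count was 3 without AAT 4. TGF-beta pathway genes (14, median 1.40) had 5 upward, 2 after quantile normalization, 3 without AAT 1 and 2 without DIA 1. Their receptor Tgfbr2 had signals of 4718, 11580, 9918 and 10740 in AAT nodes, 1950 and 4699 in DIA nodes and 3036 to 5560 in NOR nodes (2.11 ± 0.47, adjusted p = 0.149). AAT 1 and DIA 2 nearly met. PI3K and Akt genes (21, median 1.06) had 4 upward, among them Gsk3b (1.84 ± 0.40), Foxo3 (1.77 ± 0.44) and Foxo1 (1.69 ± 0.41), and 2 without DIA 1. Among chemokines (18, median 0.37), Cxcl12, which reticular cells make, had signals of 4978, 17590, 13110 and 12540 in AAT nodes, against 1484 and 2918 in DIA nodes and 960 to 4819 in NOR nodes (2.98 ± 0.59, adjusted p = 0.0989). Every AAT array was above every other.

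Acinar and ductal genes differed widely between arrays. The 20 acinar and ductal genes summed to 4650, 5144, 448100 and 1701 on the AAT arrays, against 19680 and 2421 on the DIA arrays and 1456 to 4501 on the NOR arrays. AAT 3 stood far above all others, followed by DIA 1. Prss2, a trypsinogen, had signals of 156, 366, 49320 and 8.85 in AAT nodes and 864 and 34.5 in DIA nodes, and Cpa1, a carboxypeptidase, 349, 122, 24100 and 42.3 in AAT nodes and 868 and 23.1 in DIA nodes. No acinar gene passed either criterion, with 3 passing downward without AAT 3 and 3 upward without AAT 4, and the median of 1.32 was −0.37 without AAT 3. The 18 islet genes summed to 456 to 2286 on AAT arrays, 1295 and 6777 on DIA arrays and 1774 to 4904 on NOR arrays. Of them 6 passed the looser criterion downward, none upward and none was called, with a median of −0.79 and 16 members below the median signal. Relative to the median change 3 passed downward. Ptprn, the granule autoantigen IA-2, had signals of 6.31, 7.35, 6.26 and 4.56 in AAT nodes, against 381 and 113 in DIA nodes and 187 to 305 in NOR nodes (−4.52 ± 1.08, adjusted p = 0.0740). Its signal lay below the 20th percentile on every AAT array, so the size of the change is approximate. Iapp, the beta cell hormone amylin, had signals of 150, 12.3, 78.7 and 98.7 in AAT nodes, 1126 and 285 in DIA nodes and 407 to 1424 in NOR nodes (−2.62 ± 0.91, adjusted p = 0.131). AAT nodes were below both other groups for Ptprn and Iapp, but not for every islet gene. The insulin gene Ins2 had signals of 284, 15.7, 16.2 and 8.86 in AAT nodes, against 133 and 20.1 in DIA nodes (−0.29 ± 1.44). The glucagon gene Gcg gave −0.69 ± 1.15, and 5 of the 18 members lay above the median change. The count of 6 was 3 without AAT 4, and it fell without DIA 1, with or without AAT 3. The part of acinar and islet RNA in other results was not tested. Markers of erythroid cells, muscle, epidermis, liver and mast cells gave 1 call in all, the junction protein Tjp1 (1501, 2198, 1337 and 2776 in AAT nodes, against 255 and 442 in DIA nodes; 3.06 ± 0.47, adjusted p = 0.0456).

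**Figure D5:**
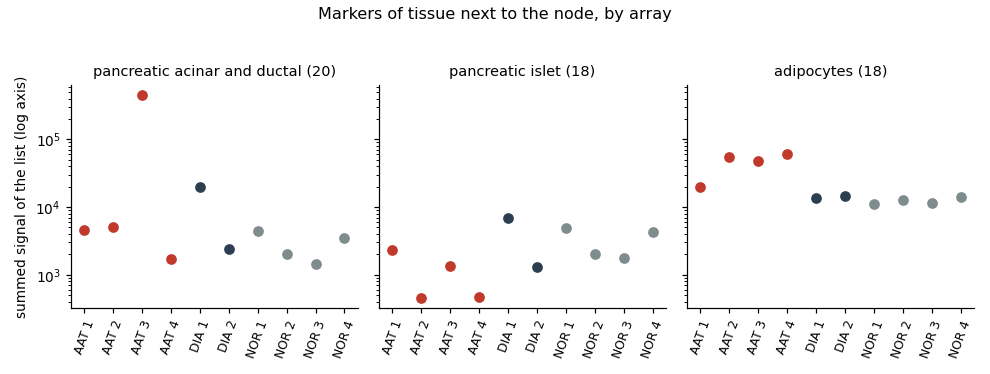
Summed signal (log axis) of 3 marker lists of tissue next to the node, on each PLN array. AAT 3 reaches 448100 for acinar and ductal genes, and all AAT arrays lie above the DIA and NOR arrays for adipocyte genes, Lpl and Fabp4 included.

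Without AAT 3 and DIA 1 together, the looser criterion was passed by 4.86% of genes higher and 2.40% lower. On that basis 5 lymphatic endothelial, 9 matrix, 4 macrophage, 4 oxidative phosphorylation, 4 glucocorticoid response, 3 adipocyte, 3 immediate early, 2 TGF-beta and 2 PI3K genes were upward, with none of these lists holding a member downward. Proteasome genes were 3 upward and 1 downward, and blood endothelium 3 upward and 0 downward. VEGF genes had 2 upward, node stroma, TNF family and hub genes 1 each, and interferon-stimulated genes 0. B cell genes were 0 upward and 4 downward, RNA splicing genes 0 and 3, NF-kB genes 0 and 2, and cell cycle genes 1 and 2. The islet list had 1 downward, and the neutrophil list 2 upward and 0 downward.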

How the data were processed

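RNA was measured on Affymetrix Mouse 430 2.0 arrays. The label protocol names both a standard Affymetrix procedure and an amplification kit for small samples. The deposited values are intensity signals that the authors made with MAS5 (submitters' processing notes, version not given in the sources used here), scaled to the same 2% trimmed mean on each array. The study's methods name RMA, which was not used here. The 64 control probe sets were left out, signals under 1 were set to 1, and log2 values of the 10 PLN arrays were fitted with limma 3.58.1 (R 4.3.3; lmFit, eBayes with trend), with Benjamini-Hochberg adjustment over 45037 probe sets and calls at 0.05. Simulated arrays carrying known changes were used to test the fit. The precision is limited by the number of arrays.

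Gene symbols came from the platform annotation (34945 probe sets name 1 gene, 932 several, 9160 none; 34741 symbols were brought up to date). Each gene is given by its brightest probe set naming it alone. Named genes had a mean at or above the median and AAT and DIA arrays that did not overlap after centring, 12 per direction, called ones first by size and then by smallest p. From each of the 42 lists (700 of 772 entries measured) the 4 most significant and the 2 brightest members could be named, and all of the hubs, TNF family and proteases. Members and lists were chosen with earlier results of these data known, and any other gene was chosen after its values were seen. Alternatives were quantile normalization, centring, filters, floors, an offset, no variance trend, 1 probe set per gene, AAT and DIA arrays alone, a replicate block and leaving out each array.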

Additional observations from a re-analysis of the deposited data

Results flagged for a closer look

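Of 138 groups of 4 arrays examined for an array far from the others, 4 had one, where chance sets apart about 5% of groups. Aplnr had a log2 signal of 10.7 on AAT 2, against 12.9 on each of the other AAT arrays. Adgrb1 had a log2 signal of 7.66 on AAT 1, against 4.56 to 5.02 on the others. The median of the pancreatic acinar and ductal list, relative to NOR, was 6.65 on AAT 3, against 0.03 to 0.91 on the other AAT arrays. The median of the node chemokine list was −0.39 on NOR 1, against 0.13 to 0.16 on the other NOR arrays.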

How the results depend on the processing

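The 45 calls became 24 with AAT and DIA arrays alone, 8 with arrays centred on their medians, 91 with a floor at the 20th percentile, 77 with log2 of signal plus 32 and 0 in limma without a variance trend, where 6737 transcripts passed the looser criterion. Leaving out 1 array at a time gave 1 to 866 calls, and leaving out AAT 3 and DIA 1 gave 1. The labels share only replicate numbers (same-numbered AAT and DIA arrays deviated together at r = 0.246 and 0.176, AAT and NOR arrays at −0.041 to 0.281), and a replicate block gave 13 calls, 10 of them among the 45. The 7449 transcripts past a fold of 2 were 4665 with AAT and DIA arrays alone, 3939 above the 60th percentile of mean signal, 2902 with 1 probe set per gene, 3000 to 10146 without 1 array and 3788 without AAT 3 and DIA 1. Relative to the median change, 6810 became 3845, 3054, 3119 to 8859 and 3830 under the last 4 of these. The median change of −0.58 was −0.04 after quantile normalization, 0.21 after centring and −0.96 to −0.30 without 1 array. Centring gave 5280 transcripts higher and 1334 lower past the looser criterion. The 8 calls after centring were all higher in AAT nodes. Other probe sets of the same gene went the opposite way for Cryab (−1.51), Mpzl2 (−0.77), Fmod (−0.20), Rnf144b (−0.75), Stard5 (2.47 and 2.00), Tnik (1.17 and 2.30), Zfhx3 (−0.37), Fkbp9 (−0.70), Fabp4 (−0.68), Tmem64 (−0.22), Csf1r (−0.83), Erlin1 (−1.27), Lepr (−1.17), Sbf2 (−0.98), Glul (−0.15) and Mxd4 (−2.05, −0.37 and −2.00). The cause was not tested in any of these cases. With 2 DIA arrays, of which DIA 1 correlated least with the rest, the calls depend on single arrays.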
